A study of Mus musculus with 17 samples.

Results

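Adrenomedullin and its receptor were described here in endothelial cells of mouse bone marrow through 5 genes. Adm encodes the peptide hormone adrenomedullin, Calcrl encodes the calcitonin receptor-like receptor, and Ramp1, Ramp2 and Ramp3 encode the receptor activity-modifying proteins. The 5 genes were selected by name as rows of the count tables, and they are 5 of the 49585 gene identifiers counted in each library. The family was chosen with the genotype and time differences of these same libraries already known. Differences between genotypes and between times are therefore given as descriptions and support nothing on their own.

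The 17 SmartSeq2 libraries came from bone marrow of wild-type mice (WT) and of mice lacking Endoglin, a co-receptor of the TGF-beta family, in endothelium (KO). KO animals were of the line Cdh5:CreERT2-Engf/f, in which tamoxifen activates a Cre recombinase made from the endothelial Cdh5 promoter and loxP sites flank exons 5 and 6 of Eng. Tamoxifen injections are recorded for WT and KO animals alike, the induction was at 8 weeks of age, and cells were taken 2 or 4 weeks afterwards. Whether WT animals carried the Cre transgene or the floxed allele, and the strain background, are not given in the sources used here. The groups were WT at 2 weeks (2 females f1 and f4, 2 males m2 and m3), KO at 2 weeks (the same sexes and numbers), WT at 4 weeks (females f and f3, males m1, m2 and m3) and KO at 4 weeks (female f2, males m1, m2 and m3). The sorted cells were CD31+ and Sca1+ and lacked CD45 and Ter119 per the protocol, while the design text gives that gate without Sca1. Each library carries its own label, and nothing says that animals were pooled or came from separate litters, so p-values measure the spread between these samples.

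Adrenomedullin is a vasodilator peptide made by endothelium and other tissues, and it is a known target of the hypoxia-inducible factors. CALCRL is a G protein-coupled receptor that reaches the cell surface only together with a RAMP, and the RAMP sets which ligand it prefers: with RAMP1 it is a receptor for calcitonin gene-related peptide, and with RAMP2 or RAMP3 a receptor for adrenomedullin. The receptor couples mainly to the stimulatory G protein and cyclic AMP. Mice without Adm, Calcrl or Ramp2 die before birth with oedema and defects of blood and lymphatic vessels.

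The sequences just before the starts of Adm and Ramp3 are shown because Adm is the member whose 4-week genotypes did not overlap, while the levels of Ramp3 did, and both windows hold the short core of a hypoxia response element. RefSeq windows of assembly GRCm38.p6 were matched for 4 of the 5 members. Capitals mark the hypoxia response element core (ACGTG or GCGTG, either strand, so also CACGC), the TATA box (TATAAA or TATAAG, gene strand) and the Sp/KLF GC box (GGGCGG, either strand, so also CCGCCC). No marked motif overlaps another, and the Ramp3 run stops 12 bases before the RefSeq start, where the gene begins in GENCODE.
Adm, chr7:110627407-110627656, plus strand: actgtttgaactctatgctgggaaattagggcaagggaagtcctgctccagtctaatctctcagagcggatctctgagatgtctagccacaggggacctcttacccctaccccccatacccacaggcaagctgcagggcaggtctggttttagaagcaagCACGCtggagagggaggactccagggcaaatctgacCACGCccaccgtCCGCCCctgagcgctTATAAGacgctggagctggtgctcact
Ramp3, chr11:6658283-6658520, plus strand: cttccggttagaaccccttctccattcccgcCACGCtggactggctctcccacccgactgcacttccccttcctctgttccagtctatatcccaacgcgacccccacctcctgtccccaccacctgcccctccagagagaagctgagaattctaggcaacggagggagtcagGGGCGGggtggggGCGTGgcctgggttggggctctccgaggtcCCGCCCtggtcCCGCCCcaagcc

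In the Adm window CACGC began at positions -90 and -54 from the RefSeq start, CCGCCC at -42 and TATAAG at -27. In the Ramp3 window the hypoxia element core began at -219 and -65 and the GC box at -78, -35 and -24, with no TATA box. Of 32851 RefSeq windows of 250 bases, 38.6% held the hypoxia element core, 32.7% the GC box and 11.2% the TATA box. A motif of 6 bases known for SMAD1/5 (GGCGCC, either strand) was also searched; 9.59% of all windows held it and none of the 4 members' windows did. The Ramp1 window held none of the searched motifs, and that of Calcrl held a GC box only at -83, downstream of the first base of the gene in the GENCODE annotation. A match of letters is a description and not a measured binding site.

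The members differ in their annotation in ways that bear on counting. Adm (ENSMUSG00000030790, chromosome 7, 110627661 to 110629820, plus strand) shared no exon base with another counted gene. Calcrl (ENSMUSG00000059588, chromosome 2, 84330626 to 84425411, minus strand) and Ramp1 (ENSMUSG00000034353, chromosome 1, 91179822 to 91225196, plus strand) overlapped no other gene. Ramp2 (ENSMUSG00000001240, chromosome 11, 101246028 to 101259546, plus strand) shared 1103 exon bases, 33.4% of its exons, with Vps25 on the same strand, and Vps25 itself had 0 to 36 counts per library. Ramp3 (ENSMUSG00000041046, chromosome 11, 6658521 to 6677475, plus strand) shared 101 exon bases with the antisense gene Gm11978, which had 43 to 518 counts, and without a stated strand setting their reads cannot be told apart there. The longest protein-coding transcripts had 1390 bases for Adm, 4882 for Calcrl, 2325 for Ramp1, 1178 for Ramp2 and 1233 for Ramp3.

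Levels are given as CPM, counts per mega-count of the library total, on a linear scale. Totals ran from 20477400 to 40882715 counts, and a count of 0 allows up to 3 counts, which is 0.0734 to 0.147 CPM and covers counting error only. Libraries of 2 weeks had 10886 to 13583 genes with a count and those of 4 weeks 15996 to 21235, with 22.2% to 29.5% and 4.66% to 8.99% of counts from mitochondrial genes, so time and library complexity cannot be told apart. Eng, the targeted gene, was at 705 to 1307 CPM in WT and 225 to 347 CPM in KO at 2 weeks. At 4 weeks it was at 2400 to 2735 CPM in WT and at 873, 322, 1647 and 274 CPM in KO f2, m1, m2 and m3, so that m2 kept the most Eng of the KO libraries. The fitted KO effect on Eng was -1.96 at 2 weeks, -1.72 at 4 weeks and -1.83 over both times, on the log2 scale. None of these passed adjustment over all genes (adjusted p = 0.612, 0.9997 and 0.110, edgeR quasi-likelihood test), so a gene can differ here without being called. The endothelial marker Pecam1 was present in every library, at 688 to 3143 CPM, and Prox1, which defines lymphatic endothelium, was at or under 8.61 CPM in each.

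Adm, the ligand, was the member whose genotypes stood apart at 4 weeks. Its level in WT was 63.4 CPM in f, 40.9 in f3, 43.8 in m1, 31.7 in m2 and 55.9 in m3. In KO it was 97.9 CPM in f2, 84.2 in m1, 77.5 in m2 and 73.3 in m3. Every KO library was above every WT library, the closest being KO m3 and WT f, and the only female KO library was the highest. The mean was 47.1 ± 12.5 CPM for the WT libraries (SD, n = 5) and 83.2 ± 10.7 CPM for the KO libraries (SD, n = 4).

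The fitted log2 fold change of Adm at 4 weeks was 0.88 with a standard error (SE) of 0.20, a 1.84-fold higher level in KO with a 95% interval of 0.43 to 1.33 on the log2 scale. It did not pass the threshold over all genes (adjusted p = 0.9997, edgeR quasi-likelihood test with Benjamini-Hochberg adjustment). Its p-value was the 12th smallest of 15209 genes tested, and that of Eng, which did not pass either, was the 45th. At this comparison 0% of genes were called, 0 of 15209, and 422 had an unadjusted p under 0.05, Adm and Ramp1 among them; DESeq2 called 17 genes and limma voom 0. Of the 5 members 1 was higher in every KO library than in every WT library, against 0.664% of all genes tested; the members were chosen with this contrast known, so nothing is read from that count. Adm was highest in KO f2, with an Eng level of 873 CPM, and was 77.5 CPM in KO m2, with an Eng level of 1647, so the 4 KO libraries did not order by their remaining Eng. Over the 19 alternative settings and left-out libraries the log2 fold change lay between 0.76 and 1.03 and the adjusted p between 0.0756 and 1. In a fit of all 17 libraries, which share 1 estimate of the spread with those of 2 weeks, it was 0.93 with an SE of 1.32 (unadjusted p = 0.492, adjusted p = 1, edgeR), so its distance from 0 in SEs rests on fitting 4 weeks alone. In bulk samples fewer cells of a type and less RNA per cell cannot be told apart.

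Markers of red cells were higher on average in KO in the same libraries. The summed level of 7 erythroid genes was 157 to 1265 CPM in the WT and 610 to 2885 CPM in the KO libraries of 4 weeks, and all 7 had a higher mean in KO. B cell markers also leaned to KO, with a sum of 3.89 to 8.51 CPM in WT and 8.00 to 16.7 CPM in KO. Of the 4, Cd79a was higher in every KO than in every WT library, at no more than 1.51 CPM, against 0.664% of all genes tested. Vpreb1 overlapped, at 3.21 to 8.51 CPM in WT and 6.71 to 15.2 CPM in KO, as did Cd79b, and Ms4a1 was at 0 in each library. Stromal and osteoblast markers leaned the other way, 5 of 6 with a lower mean in KO and sums of 50.0 to 181 CPM in WT and 37.8 to 94.3 in KO, and so did 4 of 6 endothelial markers. Neutrophil genes overlapped, at 19.9 to 100.2 CPM in WT and 37.3 to 75.4 CPM in KO. The part of these cells in the Adm difference was not tested.

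**Figure D1:**
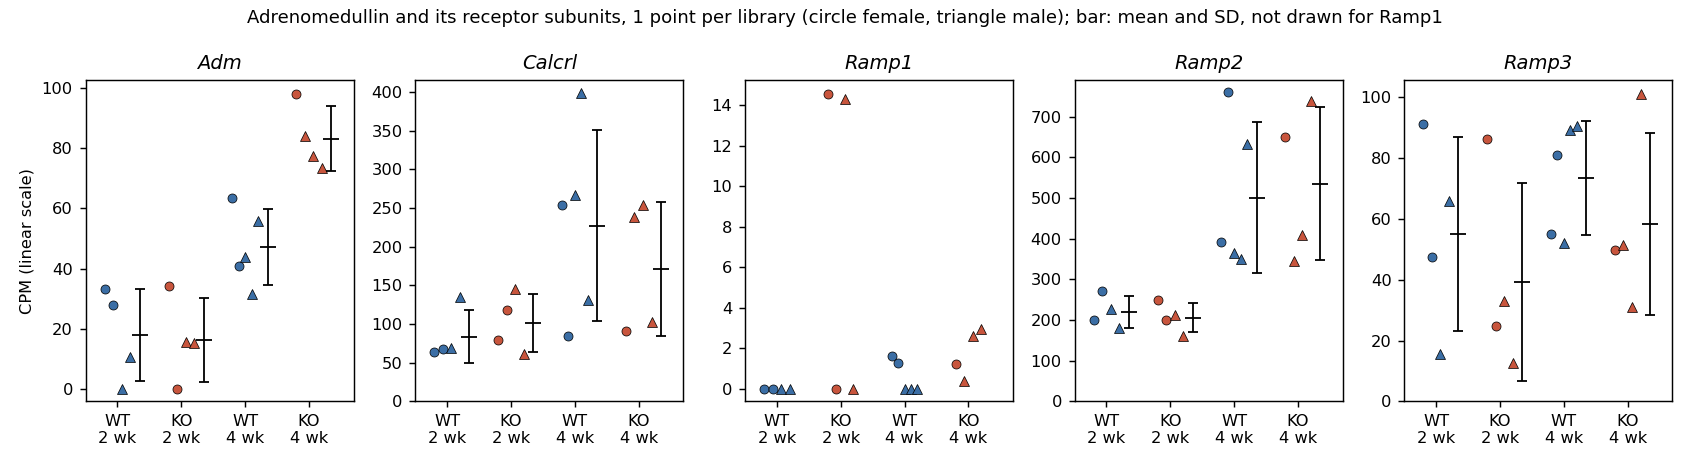
Level of each member in CPM (linear scale, a scale of its own per gene) in WT (blue) and KO (red) libraries at 2 and 4 weeks after tamoxifen, 1 point per library, with circles for females and triangles for males; bars give mean and SD and are left out for Ramp1. Adm in the 4 KO libraries of 4 weeks lies at 73.3 to 97.9 CPM, above all 5 WT libraries, while Calcrl, Ramp2 and Ramp3 overlap between genotypes at both times.

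At 2 weeks Adm was either present or absent in a library, in both genotypes. WT f1 had 33.2 CPM, f4 27.8, m2 0 and m3 10.8. KO f1 had 34.2 CPM, f4 0, m2 15.5 and m3 15.2. The genotypes overlapped completely, and each had a library without a single Adm read beside others with 406 to 1263 counts. The fitted log2 fold change was 0.29 with an SE of 2.48 (adjusted p = 1, edgeR), an interval of -5.59 to 6.16 that excludes neither a large rise nor a large fall. With 1 library left out or other settings it ran from -0.91 to 0.96. At 2 weeks 0% of the 10477 genes tested were called, 276 had an unadjusted p under 0.05 and none of the 4 members tested did, and DESeq2 called 149 genes and limma voom 12; no member had genotypes that did not overlap, against 3.36% of all genes in either direction.

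Between the times Adm was higher on average at 4 weeks. The lowest WT library of 4 weeks, 31.7 CPM, was just under the highest of 2 weeks, 33.2. In KO every library of 4 weeks was above every library of 2 weeks, as was the case for 21.4% of all genes tested. The fitted change was 1.40 with an SE of 1.43 in WT and 2.21 with an SE of 1.47 in KO, on the log2 scale, and neither passed (adjusted p = 0.723 and 0.467, edgeR). The KO effect at 4 weeks minus that at 2 weeks was 0.81 with an SE of 1.94 (adjusted p = 1), so the 4-week difference is not shown to be larger than the 2-week one. Over all genes, 0.0764% had a KO effect that differed between the times, 12 of 15703, and no member was among them.

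Calcrl, the receptor, was present in all 17 libraries with 1870 to 12407 counts. At 2 weeks it was at 63.4, 67.5, 69.0 and 135.6 CPM in WT f1, f4, m2 and m3, and at 79.6, 118.1, 145.3 and 61.9 CPM in KO f1, f4, m2 and m3. Both genotypes spanned the same range, with WT m3 far above the other WT libraries. The fitted KO effect was 0.29 with an SE of 0.39 and a 95% interval of -0.63 to 1.22 on the log2 scale (adjusted p = 1, edgeR), and it was 0.61 without WT m3 and 0.098 without KO f4.

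At 4 weeks Calcrl split the libraries of each genotype into low and high ones. WT f, m1 and m2 had 254.5, 267.3 and 398.5 CPM, and WT f3 and m3 had 84.6 and 131.4. KO m1 and m2 had 238.3 and 253.8 CPM, and KO f2 and m3 had 91.3 and 102.3. No library lay between 131.4 and 238.3 CPM. The KO effect was -0.54 with an SE of 0.42 and an interval of -1.50 to 0.42 (adjusted p = 0.9997, edgeR), it ran from -0.77 without WT m3 to -0.29 without WT f, and the difference of the KO effects between the times was -0.83 with an SE of 0.60 (adjusted p = 0.920). The mean was 227 ± 124 CPM over the WT libraries (SD, n = 5) and 171 ± 86.5 CPM over the KO libraries (SD, n = 4), so the spread within a genotype was larger than the distance between the means.

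Ramp2, the RAMP of the adrenomedullin receptor of endothelium, was the member with the highest CPM in 16 of 17 libraries, the exception being WT m2 of 4 weeks, where Calcrl was higher. At 2 weeks it was at 199.1, 270.4, 227.7 and 181.5 CPM in WT f1, f4, m2 and m3 and at 248.5, 199.7, 212.4 and 162.0 CPM in KO f1, f4, m2 and m3. It varied least of the members at that time, with a coefficient of variation of 17.7% in WT and 17.4% in KO. The KO effect was -0.10 with an SE of 0.16 and an interval of -0.48 to 0.29 on the log2 scale (adjusted p = 1, edgeR), the narrowest interval of the family.

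At 4 weeks Ramp2 also fell into low and high libraries, in the opposite order to Calcrl. WT f3 and m3 had 760.9 and 632.2 CPM, and WT f, m1 and m2 had 393.1, 365.7 and 350.2. KO f2 and m3 had 650.9 and 738.8 CPM, and KO m1 and m2 had 344.8 and 408.4. The 4 libraries with high Ramp2 were the 4 with low Calcrl, 2 of each genotype. The KO effect was 0.17 with an SE of 0.33 and an interval of -0.58 to 0.91 (adjusted p = 0.9997, edgeR).

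The same 4 libraries differed from the other 5 in how counts depended on transcript length. The length slope of a library is the slope of its log2 CPM, taken as deviation from the mean of its time point, on log2 transcript length, over 8646 genes of at least 10 CPM at 4 weeks with the members left out; a negative slope means relatively fewer counts on long transcripts. The slope was -0.188 to -0.0683 in WT f3, WT m3, KO f2 and KO m3 and 0.0683 to 0.140 in the other 5. Calcrl has the longest transcript of the family, 4882 bases, and Ramp2 the shortest, 1178 bases. The 4 libraries also had smaller sums of mural markers, 718 to 940 against 1310 to 2913 CPM, and of endothelial markers, 6173 to 7256 against 7300 to 8695 CPM. The part of length dependence and of these cells in the split was not tested.

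Within the libraries of negative slope Calcrl averaged 108 CPM in WT (n = 2) and 96.8 in KO (n = 2), and Ramp2 697 and 695 CPM. Within those of positive slope Calcrl averaged 307 CPM in WT (n = 3) and 246 in KO (n = 2), and Ramp2 370 and 377 CPM. For Ramp2 the distance between the genotypes within either set was thus small beside the distance between the sets. Ramp3, with a transcript of 1233 bases close to that of Ramp2, overlapped between the sets, at 50.0 to 101.1 CPM at negative and 31.0 to 89.4 CPM at positive slope. Adm did not follow the split: it averaged 48.4 CPM in WT and 85.6 in KO at negative slope, and 46.3 and 80.9 CPM at positive slope. With the length slope as a term, an alternative added after seeing the data, the 4-week KO effect of Adm was 0.88 with an SE of 0.22, that of Calcrl -0.05 and that of Ramp2 -0.19. The effect of Ramp3 became -0.73 with an SE of 0.28, more negative than without the term (unadjusted p = 0.0334, adjusted p = 1, edgeR).

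**Figure D2:**
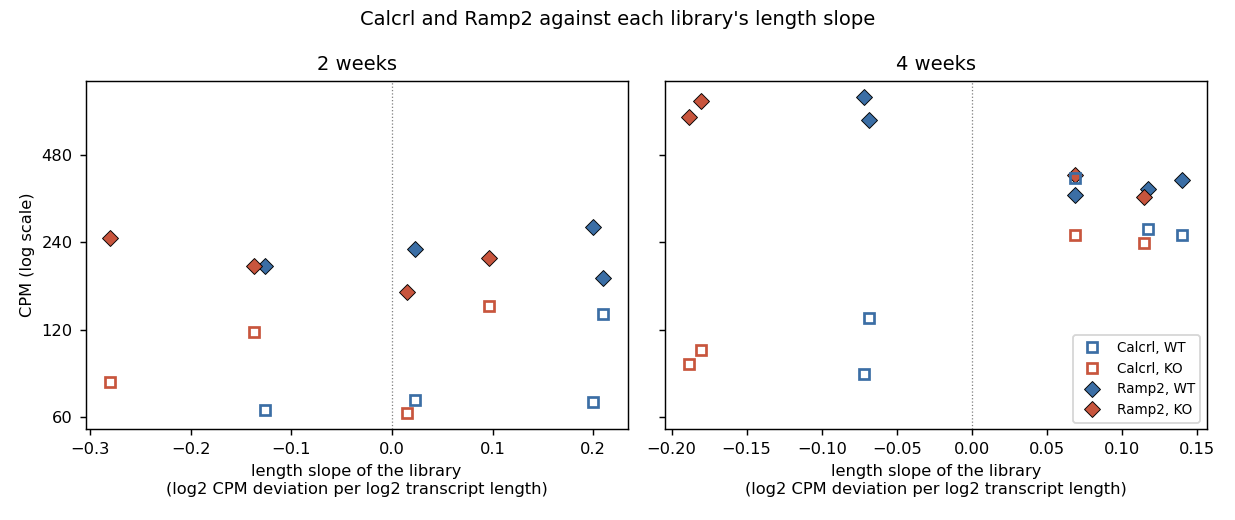
Calcrl (open squares) and Ramp2 (filled diamonds) in CPM on a log scale against the length slope of each library, at 2 weeks (8 libraries) and 4 weeks (9 libraries), with WT in blue and KO in red. At 4 weeks the 4 libraries left of 0 have Calcrl at 84.6 to 131.4 CPM and Ramp2 at 632.2 to 760.9 CPM, and the 5 on the right have Calcrl at 238.3 to 398.5 and Ramp2 at 344.8 to 408.4, with both genotypes on both sides; at 2 weeks no such split is seen.

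From 2 to 4 weeks Ramp2 was the only member called, and in KO alone was it past the threshold. Every library of 4 weeks was above every library of 2 weeks in WT and in KO. The mean went from 219.7 ± 38.8 CPM (SD, n = 4) to 500.4 ± 185 CPM (SD, n = 5) over the WT libraries and from 206 ± 35.7 (SD, n = 4) to 536 ± 189 CPM (SD, n = 4) over the KO libraries. In KO it rose by 1.15 on the log2 scale with an SE of 0.29 (adjusted p = 0.0324, edgeR over all genes), a 2.22-fold change, and 6.33% of the 15703 genes tested were called there. In WT the fitted change was 0.92 with an SE of 0.27 and did not pass (adjusted p = 0.0602), with 6.92% of genes called. The changes of WT and KO were not shown to differ (0.23 with an SE of 0.39, adjusted p = 1). Sums of endothelial markers were 2608 to 4142 CPM at 2 weeks and 6173 to 8695 CPM at 4 weeks, without overlap, and their part in the Ramp2 change was not tested.

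The Ramp2 changes stand beside a shift of the median gene that depended on the genes and method used. The median gene changed by 0.42 in WT and 0.49 in KO from 2 to 4 weeks, and 16.1% of all genes in WT and 21.4% in KO were higher in every library of 4 weeks than in every library of 2 weeks. Among the members this held for Ramp2 in WT, 1 of 5, and for Adm and Ramp2 in KO, 2 of 5. Relative to that median the change of Ramp2 is smaller than the fitted value by those amounts. With at least 10 counts in every library the median gene changed by 0.0025 in WT and -0.024 in KO, beside 1.01 and 1.22 for Ramp2, and with limma voom by 1.38 and 1.66, above the 0.90 and 1.10 for Ramp2. The KO call was absent when any of 5 libraries was left out (KO f1, f4 or m3 of 2 weeks, KO f2 or m3 of 4 weeks; adjusted p of 0.0664 to 0.100), with limma voom (adjusted p = 0.278) and with KO libraries alone (adjusted p = 0.0572). In WT, DESeq2 (adjusted p = 0.00733), DESeq2 size factors in edgeR (0.0446) and a minimum of 10 counts in every library (0.0124) brought Ramp2 past the threshold, with 18.7%, 6.81% and 12.8% of all genes called. Calcrl had a fitted change of 1.04 with an SE of 0.42 in WT (adjusted p = 0.147) and 0.21 with an SE of 0.44 in KO (adjusted p = 0.904).

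Ramp3, the other RAMP of the adrenomedullin receptor, was lower and more variable than Ramp2 at 2 weeks. WT f1, f4, m2 and m3 had 91.1, 47.5, 15.4 and 66.0 CPM, and KO f1, f4, m2 and m3 had 86.3, 24.8, 33.2 and 12.8 CPM. The highest and the lowest libraries of the genotypes were alike, and female f1 was highest in both. The KO effect was -0.61 with an SE of 0.70 and an interval of -2.28 to 1.05 on the log2 scale (adjusted p = 1, edgeR), and it was 0.02 when WT m3 was left out.

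At 4 weeks Ramp3 was at 55.1, 80.9, 52.0, 89.4 and 90.6 CPM in WT f, f3, m1, m2 and m3. In KO f2, m1, m2 and m3 it was at 50.0, 51.4, 31.0 and 101.1 CPM. Of the KO libraries 3 were below every WT library, and KO m3 was above all of them. The KO effect was -0.35 with an SE of 0.37 and an interval of -1.18 to 0.49 (adjusted p = 0.9997, edgeR), and it was -0.74 without KO m3 and -0.14 without KO m2. From 2 to 4 weeks Ramp3 changed by 0.19 with an SE of 0.55 in WT and by 0.49 with an SE of 0.60 in KO, and neither passed.

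Ramp1, the RAMP of the receptor for calcitonin gene-related peptide, was the lowest member in all 17 libraries, tied with Adm where both were at 0. At 2 weeks WT f1, f4 and m3 had a single count each and WT m2 had 0. KO f1 and m2 had 388 and 425 counts, which is 14.5 and 14.3 CPM, and KO f4 and m3 had 0. Reads were thus present in 1 female and 1 male KO library and absent from the others of the same genotype, and Ramp1 was removed by the low-count filter at 2 weeks. Where it was kept, without that filter or in a fit of all 17 libraries, its KO effect at 2 weeks did not pass (adjusted p = 0.903 and 0.214, edgeR). KO m2 also had the largest sum of neutrophil markers, 4104 CPM, but KO f1 had 106.9 CPM and KO m3, without a Ramp1 read, had 3150; the part of these cells was not tested.

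At 4 weeks Ramp1 had 55 and 35 counts in WT f and f3 and 0 in WT m1, m2 and m3. It had 25, 11, 70 and 78 counts in KO f2, m1, m2 and m3. All KO libraries had reads, at 0.410 to 2.96 CPM, and WT f and f3, at 1.63 and 1.30 CPM, lay within that range. The genotypes overlapped, and the fitted log2 fold change, 6.45 (SE 2.29), which depends on the 3 libraries at 0, did not pass (adjusted p = 0.9997, edgeR). It passed the low-count filter through the KO libraries, DESeq2 called it at 4 weeks (adjusted p = 0.0400, with 0.112% of genes called) and over both times (0.0190, with 0.267% called), and without the sex term the estimate was 1.59 with an SE of 1.65.

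Compared per kilobase of the longest protein-coding transcript, the level of Ramp2 was the highest of the 5 members in 17 of 17 libraries. Counted on the union of a gene's exons instead, Ramp2 led in 16 of 17, and Ramp3 led in WT f1 of 2 weeks. Ramp2 was followed by Calcrl, Ramp3 or Adm in an order that varied between libraries, and Ramp1 came last. Adm came next after Ramp2 in KO f2, m1 and m2 of 4 weeks, whereas in every WT library of 4 weeks Calcrl, Ramp3 or both stood between Ramp2 and Adm, as Ramp3 did in KO m3. Mean levels in CPM per kilobase at 4 weeks were 425 ± 157 for Ramp2, 59.7 ± 15.2 for Ramp3, 46.5 ± 25.3 for Calcrl, 33.9 ± 9.02 for Adm and 0.252 ± 0.349 for Ramp1 in WT (SD, n = 5). Neighbours in the run from Ramp3 through Calcrl to Adm do not differ beyond their spread, while Ramp2 and Ramp1 lie outside the ranges of the others.

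In the sum of the 3 RAMPs per kilobase, Ramp2 held 69.6% to 93.9% at 2 weeks and 80.4% to 93.1% at 4 weeks. Ramp3 held 6.08% to 30.4% and 6.75% to 19.6%, and Ramp1 at most 2.88%, in KO m2 of 2 weeks. On this length Ramp2 was the main RAMP transcript in each library, while on the union of exons Ramp3 was ahead of it in WT f1 of 2 weeks. On the union the WT means at 4 weeks were 152 CPM per kilobase for Ramp2, 53.3 for Ramp3 and 46.5 for Calcrl. The share of Ramp2 and its ratio to Calcrl are thus lower on the union. On the longest protein-coding transcript the ratio of Ramp2 to Calcrl per kilobase was 5.55 to 16.6 at 2 weeks. At 4 weeks it was 19.9 to 37.3 in the 4 libraries of negative length slope and 3.64 to 6.67 in the other 5.

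**Figure D3:**
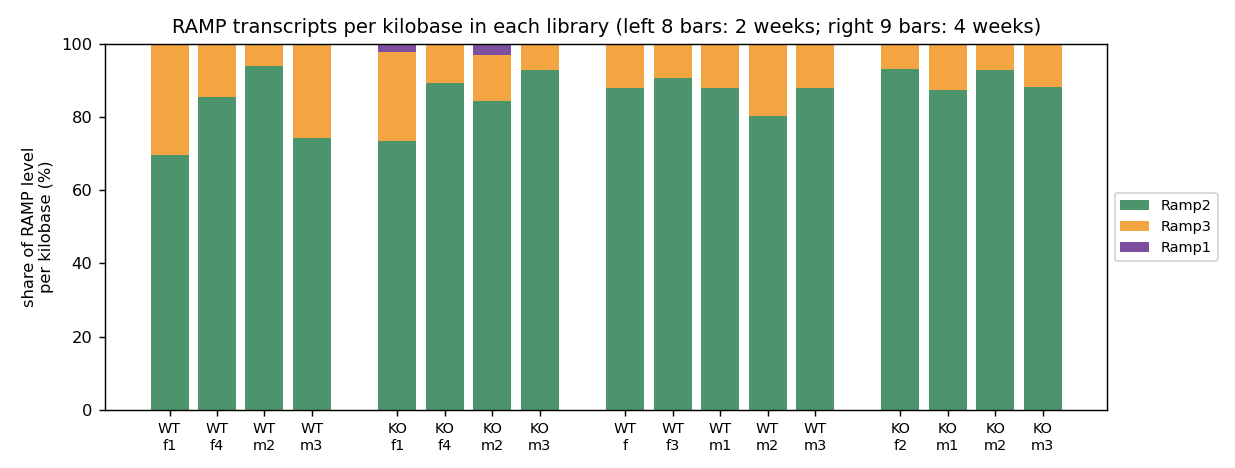
Share of each RAMP in the summed RAMP level per kilobase of the longest protein-coding transcript, in percent, 1 bar per library, with the 8 libraries of 2 weeks on the left and the 9 of 4 weeks on the right. Ramp2 (green) takes 69.6% to 93.9% of each bar and Ramp3 (orange) nearly all of the rest; Ramp1 (purple) is visible only in KO f1 and m2 of 2 weeks.

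Over both times together the KO effects of the members were 0.57 with an SE of 0.97 for Adm, -0.10 with 0.31 for Calcrl, 0.04 with 0.19 for Ramp2 and -0.40 with 0.38 for Ramp3, on the log2 scale. None of the members passed (edgeR, adjusted p = 0.9997 for each; 1 of 5, Ramp1, had an unadjusted p under 0.05, as did 3.02% of all genes), and 0.00637% of genes, 1 of 15703, did. The median gene had an effect of -0.01. Calcrl and Ramp2 were bounded most closely, at -0.76 to 0.55 and -0.37 to 0.45. The interval of Adm was wide, -1.49 to 2.63; its effect was 0.34 without WT m2 and 0.84 without KO f4 of 2 weeks, and limma voom gave 0.89 with an SE of 0.34 (unadjusted p = 0.0192, adjusted p = 0.725). That of Ramp3 was -0.66 without KO f1 and -0.23 without WT m3 of 2 weeks.

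**Figure D4:**
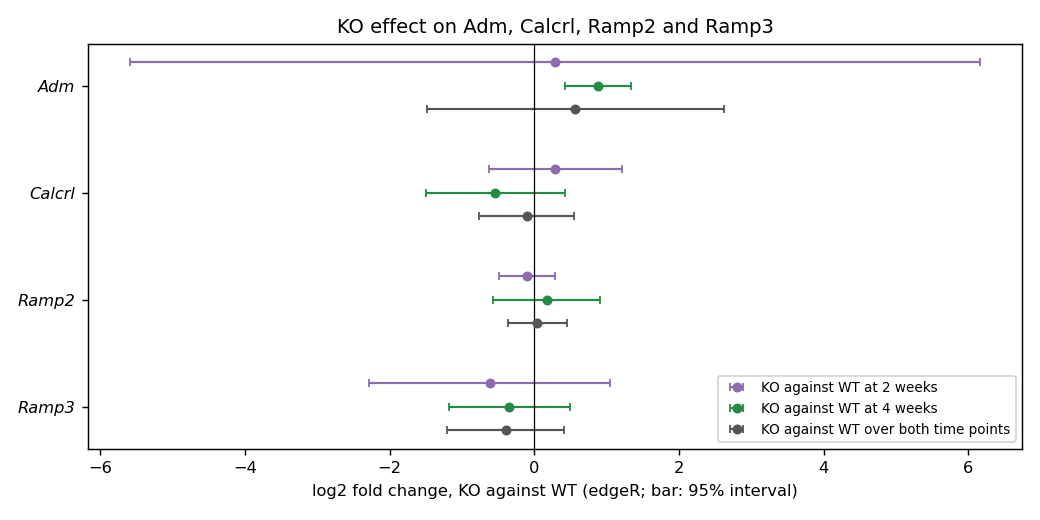
KO effect on Adm, Calcrl, Ramp2 and Ramp3 as log2 fold change with its 95% interval (edgeR), at 2 weeks (purple), at 4 weeks (green) and over both times (grey); the vertical line marks no difference. The 4-week interval of Adm, 0.43 to 1.33, is the only one that lies on 1 side of 0, and no estimate passed adjustment over all genes; Ramp1 is left out because its fit depends on libraries at 0.

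The other ligands of the calcitonin receptor family were close to absent. Adm2, which encodes intermedin, and Calca and Calcb, which encode calcitonin gene-related peptides, had 0 counts in all 17 libraries. Iapp, which encodes amylin, had 8 counts in 1 library, and Calcr, the calcitonin receptor, was seen in 2 libraries with at most 35 counts. Adm was thus the only ligand of the list with reads in most libraries, 15 of 17. Ackr3, an atypical receptor that takes up adrenomedullin as well as chemokines, was at 6.16 to 108.7 CPM at 2 weeks and 62.9 to 128.5 CPM at 4 weeks, and Gpr182, an atypical receptor of sinusoidal endothelium, was at 0 to 32.1 and 25.8 to 97.0 CPM. Their KO effects at 4 weeks were -0.18 with an SE of 0.22 and 0.11 with an SE of 0.43, and neither passed.

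Genes that process or clear the peptide and genes of receptor coupling were taken from lists chosen with earlier results of these data known. Of 5 processing genes 4 were tested at 4 weeks and none was called, with a median log2 fold change of -0.26 beside 0.01 for all genes. Of 23 coupling genes 22 were tested at 4 weeks and none was called, 16 with a negative and 6 with a positive estimate, at a median of -0.10. At 2 weeks 3 and 18 were tested and none was called. Ece1, a peptidase of vascular cells, had the smallest p among those lower in KO at 2 weeks. Its WT libraries were at 295.5 to 392.1 CPM and its KO libraries at 151.7 to 284.7 without overlap. Of all genes tested at 2 weeks 3.36% had genotypes that did not overlap, in either direction. The fitted effect of Ece1 was -0.68 with an SE of 0.23 (adjusted p = 1, edgeR). Crcp, a small protein that couples the receptor to its pathway, followed with 11.2 to 71.7 CPM in WT and 0 to 29.8 CPM in KO, and was level at 4 weeks, -0.03 with an SE of 0.18. On the higher side at 2 weeks were Creb1, a cyclic AMP-responsive transcription factor, at 4.77 to 42.9 CPM in WT and 42.6 to 90.2 CPM in KO (1.48 with an SE of 0.82, adjusted p = 1), and Slc9a3r1, a scaffold protein, at 0 to 24.7 and 0 to 44.8 CPM. Cell markers differed between the same libraries of 2 weeks: erythroid sums were 61.4 to 179.6 CPM in WT and 277.7 to 1240 CPM in KO without overlap, all 9 neutrophil genes had a higher mean in KO, and 5 of 6 endothelial markers had a lower one. The part of these cells in the values of 2 weeks was not tested.

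At 4 weeks the smallest p-values among the lower coupling genes belonged to Rapgef4 and Adcy4. Rapgef4, a cyclic AMP-activated exchange factor for Rap, was at 27.7 to 83.9 CPM in WT and 9.21 to 28.2 in KO, with an effect of -1.40 and an SE of 0.44 (adjusted p = 0.9997, edgeR). Adcy4, an adenylyl cyclase of endothelium, was at 417 to 559 CPM in WT and 343 to 454 in KO, with an effect of -0.31 and an SE of 0.14 (adjusted p = 0.9997). KO was lower on average for both, and 1 KO library of Rapgef4 and 1 of Adcy4 lay inside the WT range. Between the times Adcy4 rose in WT by 1.61 with an SE of 0.17 (adjusted p = 7.54e-05) and in KO by 1.08 with an SE of 0.17 (adjusted p = 0.00277), and Gnb1, a G protein beta subunit, fell by 0.80 in KO with an SE of 0.19 (adjusted p = 0.0250). Of the 22 coupling genes tested, 1 rose and 0 fell in WT, and 1 rose and 1 fell in KO, where 6.92% and 6.33% of all genes were called, so these counts are near the background.

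Hypoxia-responsive genes were listed beside Adm because Adm belongs to that response. At 4 weeks 14 of 15 listed genes were tested and none was called. Of these 12 had a positive and 2 a negative estimate. The median was 0.28, where 51.3% of all genes were positive at a median of 0.01. Some of the 12 were small beside their SE, such as Slc2a3 at 0.05 with an SE of 1.43 and Egln1 at 0.15 with an SE of 0.30. The smallest p-values were those of Ankrd37 and Bnip3. Ankrd37, an ankyrin repeat protein, was at 11.3 to 49.7 CPM in WT and 41.5 to 108.6 CPM in KO (1.09 with an SE of 0.45, adjusted p = 0.9997, edgeR). Bnip3, a mitochondrial protein of mitophagy, was at 72.1 to 134 CPM in WT and 124.2 to 309.8 CPM in KO (0.72 with an SE of 0.31, adjusted p = 0.9997). Both ranges overlapped between genotypes, and KO m2 was highest for both, whereas Adm was highest in KO f2. KO m2 also had the highest sum of erythroid markers of the 17 libraries, 2885 CPM, and KO f2 followed with 2416. The part of these cells in the hypoxia list was not tested, and neither was a part of hypoxia in the Adm difference. At 2 weeks 11 were tested, 8 with a positive estimate, at a median of 0.21 beside -0.06 for all genes, and none was called. From 2 to 4 weeks Egln3, a prolyl hydroxylase of the pathway, rose in KO (adjusted p = 0.0470), from 0 counts in each library of 2 weeks to 9 to 229 counts at 4 weeks, 1 of 14 tested where 6.33% of all genes were called. In WT it also went from 0 counts in each library of 2 weeks, to 0 to 160, and just missed the threshold (adjusted p = 0.0592, edgeR); with all libraries of 2 weeks at 0, the difference between these changes could not be fitted. No other gene of this list was called.

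**Figure D5:**
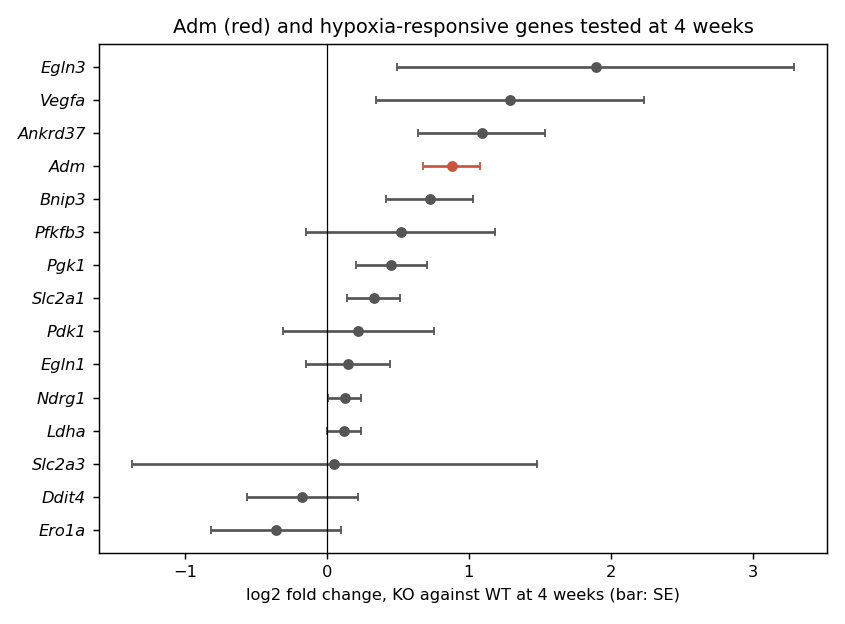
KO effect at 4 weeks as log2 fold change with its SE (edgeR) for Adm (red) and the 14 hypoxia-responsive genes tested (grey), ordered by size. The estimates of 12 of the 14 lie right of 0 and those of Ddit4 and Ero1a left of it, Adm lies at 0.88, and none passed adjustment over all genes; the estimate for Egln3 depends on a WT library at 0.

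The genes whose levels were most like each member's were sought by Pearson's r of log2 CPM over the 9 libraries of 4 weeks, among 8654 other genes of at least 10 CPM. These values are descriptions: the 9 points share depth, genotype and the length slope, and each was repeated in the 8 libraries of 2 weeks. For Adm the nearest were Zfp931 (r = 0.971), Dglucy (0.963) and Smim27 (0.933), with -0.195, -0.730 and -0.248 at 2 weeks, so none kept its likeness. For Calcrl they were Gpd1l (0.987), Znfx1 (0.986) and Hif1a (0.985), all with long transcripts of 4391 to 7218 bases, and with 0.105, -0.447 and 0.246 at 2 weeks. For Ramp2 they were Gm4617 (0.981), Bcap31 (0.980) and Gm37401 (0.979), with transcripts of 331 to 1219 bases, and with 0.478, 0.310 and 0.194 at 2 weeks. For Ramp3 they were Praf2 (0.971), its antisense neighbour Gm11978 (0.957) and Cnksr3 (0.941), and of these Gm11978 kept its value at 2 weeks (0.977), Praf2 (0.0744) and Cnksr3 (-0.685) not. Ramp3 and Gm11978 share 101 exon bases and the strand setting is not stated, so shared reads may enter the r of that pair.

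Among the members themselves, Ramp2 came 8652nd of 8654 in the order of likeness to Calcrl at 4 weeks, and r was -0.160 at 2 weeks. The libraries of 4 weeks fall into 2 sets, each too small for a value of its own, so a relation within the sets was not tested. Adm came 6144th in the order for Calcrl (r = -0.333) and 3432nd in that for Ramp2 (r = 0.161). Ramp3 came 1693rd in the order for Ramp2 (r = 0.480). Ramp1 was below the level required.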

How the data were processed

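The deposited values were raw counts per gene, 1 table per library, made by the authors with cutadapt, STAR and HTSeq 0.6.1p1 on GRCm38 (mm10), per the submitters' processing notes. The annotation, the counting mode and the strand setting are not given in the sources used here. SmartSeq2 counts amplified fragments without molecular identifiers, so floors cover counting error only. Symbols and positions came from GENCODE M21 of GRCm38, which named 49326 of 49585 identifiers, and promoter windows from RefSeq.

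Differences were fitted on all genes with edgeR 4.0.16 in R 4.3.3 (filterByExpr, TMM scaling, robust quasi-likelihood test), with genotype and sex as terms within a time point, or with group means and sex over all 17 libraries. P-values were adjusted by Benjamini-Hochberg over all genes, with a threshold of 0.05. The procedure was tested on simulated data. Alternatives were DESeq2 1.42.0, voom with quality weights in limma 3.58.1, other scalings, filters and terms, and each library left out.

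The members, gene lists and tests were chosen with earlier results of these data known. Besides the members and Eng, the text names list genes past the threshold, the 2 per direction with the smallest p in each KO comparison within a time, and the 3 genes most like each member. Within a group the most similar libraries differed by 47.1 chi-square units per degree of freedom, far beyond sampling noise.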

Additional observations from a re-analysis of the deposited data

Results flagged for a closer look

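Of the 20 combinations of a member and a group of libraries, 2 held a library apart from the rest by Dixon's test for the gap of an extreme value; chance gives about 1 in 20. Calcrl was at 135.6 CPM in WT m3 of 2 weeks, where the other WT libraries of that time were at 63.4 to 69.0 CPM. Ramp1 was at 0 CPM in WT m2 of 2 weeks, where the other WT libraries had a single count each, 0.0245 to 0.0265 CPM, and all of them lie under the floor of 3 counts.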

How the results depend on the processing

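No KO effect on Adm, Calcrl, Ramp2 or Ramp3 passed the threshold under any setting tried. DESeq2 called 1 member, Ramp1, at 4 weeks and 1, again Ramp1, over both times, among 17 of 15209 and 42 of 15703 genes called. From 2 to 4 weeks in WT, 1 member, Ramp2, was called with DESeq2, with DESeq2 size factors and with at least 10 counts in every library, which called 2938, 1069 and 639 genes against 1086 in edgeR. In KO no member (0) was called with limma voom or with KO libraries alone, and with 1 library left out the number called was 0 to 1. The causes were not tested.

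Signs changed in these cases. The Adm effect at 2 weeks was -0.16 without the sex term, -0.91 without both male KO libraries and -0.38 to 0.96 with 1 library left out. With the length slope as a term, added after seeing the data, Ramp2 at 4 weeks was -0.19, and over both times Calcrl was 0.24 and Ramp2 -0.15. With limma voom the change of Ramp1 from 2 to 4 weeks in KO was 0.47. With 1 library left out, Ramp3 at 2 weeks ran from -1.10 to 0.017, Ramp2 at 4 weeks from -0.11 to 0.39, and over both times Calcrl from -0.25 to 0.028 and Ramp2 from -0.089 to 0.12. The difference of KO effects ran from -6.09 to 0.95 for Ramp1, -0.016 to 0.41 for Ramp2 and -0.17 to 0.86 for Ramp3. The change from 2 to 4 weeks ran from -0.15 to 0.59 for Ramp3 in WT, and in KO from -0.061 to 0.41 for Calcrl and -2.36 to 2.99 for Ramp1.

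Whether the labels' replicate numbers pair the libraries is not settled. Same-numbered WT and KO libraries had deviations correlated at -0.0228 to 0.0491 at 2 weeks and 0.0185 to 0.374 among the males of 4 weeks. At each time KO numbers 1 and 3 had their highest correlation with the WT library of their own number, and the others did not. The values of m1 and m3 at 4 weeks were 0.186 and 0.374. With the number as a replicate block the Adm effect was 0.23 at 2 weeks and 0.88 at 4 weeks, and it changed no call of a member. Adm at 2 weeks and Ramp1 at both times are limited by libraries without a read. Totals without mitochondrial genes raised the mean of Ramp2 at 2 weeks to 292 CPM in WT and 277 in KO.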
